A study of Rattus norvegicus with 4 samples.

Results

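The genes described here encode cytokines, chemokines and their receptors, with a few intracellular regulators of the same signals, in visceral fat of obese and control rats. Members were chosen by their symbol in the platform annotation: names starting with Il and a digit, Ccl, Cxcl, Ccr, Cxcr, Tnf or Csf, plus Nfkbia, Nfkb1, Rela, Ptgs2, Pf4 and Socs3. The rule found 102 of the 10411 genes that the array measures under a single symbol. Where a gene had several probe sets (16 of the 102), the one with the highest mean signal over the arrays was used. RNA of visceral adipose tissue was hybridised to 4 single-colour arrays, 2 labelled control and 2 labelled obese, all from male Wistar rats aged 130 days. The labels name no diet, genotype or drug for either group and do not say how obesity arose or whether an array holds 1 animal or a pool, so the spread between arrays may be technical. Precision is limited by the 2 arrays per group.

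Cytokines and chemokines are secreted proteins that bind receptors on other cells. Chemokines guide leukocyte movement through receptors coupled to G proteins, many interleukins signal through JAK kinases and STAT factors, and tumour necrosis factor and interleukin-1 activate the transcription factor NF-kB. In resting cells NF-kB is held in the cytoplasm by inhibitors such as the product of Nfkbia, whose gene is itself an NF-kB target. Fat tissue holds resident macrophages and lymphocytes beside adipocytes, and infiltration of visceral fat by macrophages is a well-known feature of obesity in rodents.

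Signals are linear intensities in arbitrary units. Signals under 20.8, the 20th percentile of the deposited values, were set to that floor, and genes exceeding it on 2 or more arrays were tested. Of the 102 members 87 qualified: 74 exceeded the floor on all 4, 11 on 2 or 3 arrays of both groups, Tnf only on the control arrays and Csf3 only on the obese arrays. Having been admitted by their brighter group alone, Tnf and Csf3 could only come out lower and higher, respectively. The remaining 15 were not tested. Of these, Ccl28, Cxcl6, Il10, Il11, Il17f, Il2, Il5, Il10ra, Il1rn and Tnfrsf9 lay at or under the floor on every array, and Il12a, Il6, Il1r2, Ptgs2 and Tnfsf11 lay above it on 1 array. Interleukin-6, a major cytokine of fat tissue, thus had signals of 8.4 and 20.4 on control replicates 1 and 2 and of 18.4 and 21.5 on obese replicates 1 and 2. Ptgs2, the inducible cyclooxygenase, had 16.4 and 14.4 in control and 24.6 and 10.9 in obese tissue. No fold is given for these genes, since both groups lay close to or under the floor.

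**Figure D1:**
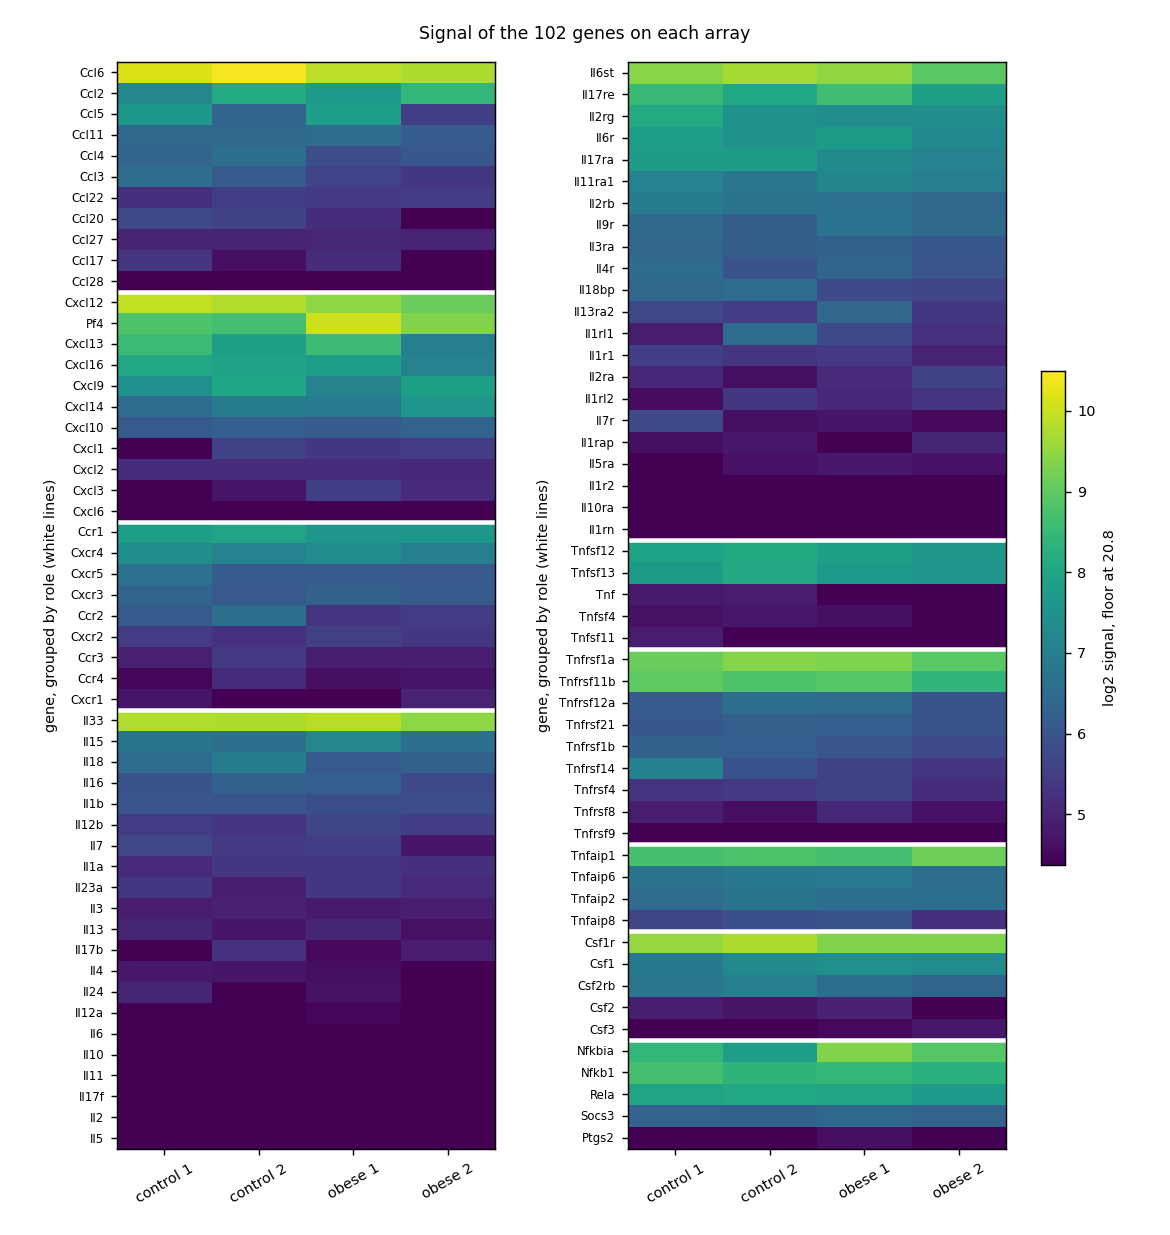
Signal of the 102 genes (rows, grouped by role) on the 4 arrays (columns), coloured by log2 signal with values under 20.8 set to that floor. Colours compare arrays within a gene and not genes with each other, since probe sets differ in brightness. The rows that are darkest in all 4 columns lay at, under or just above the floor throughout.

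Among the 87 tested members, 0 passed limma's moderated test at an adjusted p of 0.05, and over all 12929 tested probe sets 0% passed. An unadjusted limma p under 0.05 was reached by 13 members, against 8.59% of all 9011 tested genes. Of the 13, 3 were higher in obese tissue (Pf4, Nfkbia and Cxcl3), where the share over all genes was 3.33%, although a second probe set of Cxcl3 read the opposite way, and 10 were lower (Il18bp, Ccr2, Il17ra, Ccl3, Cxcl12, Ccl6, Ccl20, Ccl4, Tnfrsf14 and Tnf), where it was 5.26%. The 2 obese arrays both exceeded the 2 control arrays for 8 members (9.20%) and both lay below them for 26 (29.9%), against 16.4% and 24.0% of all tested genes. With each array centred on its median, 14 members lay above and 23 below, against 23.0% and 16.5% of all genes. With quantile normalization the numbers were 14 and 24, against 19.5% and 20.7%, and with cyclic loess they were 15 and 24, against 20.36% and 19.96%. The groups were separated and at least 2-fold apart for 1 member upwards (Nfkbia) and 1 downwards (Tnfrsf14), against 0.411% and 0.744% of all genes. The counts over the 87 members hold Tnf and Csf3, whose directions the filter fixed. Of the 74 members above the floor on all 4 arrays, 6 were separated upwards and 23 downwards, against 16.8% and 24.1% of all such genes. An unadjusted limma p under 0.05 was reached by 2 of the 74 upwards and 8 downwards, against 275 and 418 of 8416 genes.

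Of the 87 members 59 were lower and 28 higher in obese tissue, and of all 9011 tested genes 5102 were lower and 3905 higher. The median log2 difference, obese minus control, was -0.13 over the 87 members and -0.04 over all tested genes. It rested on obese replicate 2: without that array the median was 0.0028, with 44 members higher and 43 lower, and 28 were separated upwards and 30 downwards. Groups of fewer arrays separate more easily, and over all genes those shares were then 33.1% and 35.7%. Obese replicate 2 was the lowest of the 4 arrays for 44 of the 87 members (50.6%), and for 36.9% of all tested genes. With 1 array left out in turn, the sign of the difference turned for 41 of the 87 members and did not turn for 46. The 46 hold Tnf and Csf3, whose directions the filter fixed. The share over all genes is not given here, so the members cannot be compared with other genes in this respect.

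**Figure D2:**
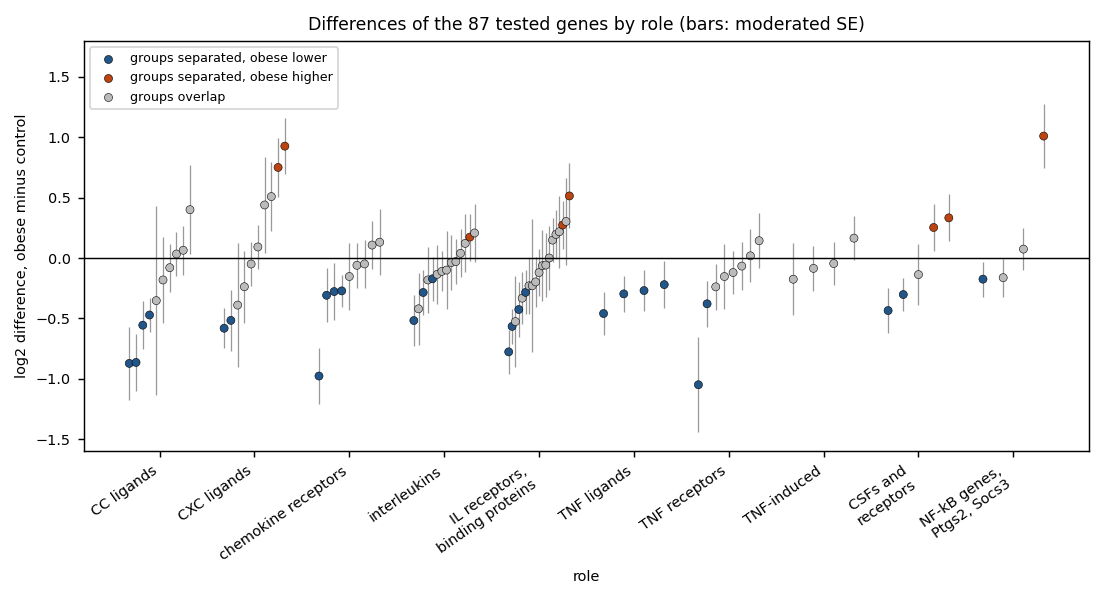
Log2 difference, obese minus control (vertical axis), of the 87 tested genes grouped by role (horizontal axis), with the moderated standard error as bars. Blue and red points are genes whose groups were separated, 26 lower and 8 higher in obese tissue, and grey points are genes whose groups overlapped; Nfkbia stands highest at 1.01 and Tnfrsf14 lowest at -1.05.

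The intracellular regulators comprise the NF-kB subunits p105/p50 (Nfkb1) and p65 (Rela), the inhibitor IkB-alpha (Nfkbia), the cyclooxygenase Ptgs2 and Socs3, a feedback inhibitor of JAK-STAT signalling. Nfkbia had signals of 345.3 and 219.4 on control replicates 1 and 2 and of 651.1 and 472.2 on obese replicates 1 and 2. The groups did not overlap, and the log2 difference was 1.01 ± 0.26 (SE; limma adjusted p = 0.467). The difference lay between 0.68 and 1.34 with 1 array left out in turn. The genes of the subunits it binds differed less. Nfkb1 had 413 and 329.8 in control and 348.3 and 312.3 in obese tissue, and its groups overlapped. Rela had 249.4 and 262.1 against 246.6 and 208.1, so that the first obese array lay just under the lower control array. Socs3 signals were 79.2 and 77.6 in control and 86.8 and 78.5 in obese tissue, groups that also overlapped.

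The promoters of 4 members are shown because each holds a match to the NF-kB consensus while their signals ran differently: Nfkbia (higher in obese tissue), Nfkb1 and Cxcl10 (overlapping groups) and Ccl20 (lower). Each window runs 5′ to 3′ along the gene from 250 bases before its start to 50 after it, from RefSeq, build GRCr8, and capitals mark the bases matched on either strand. Their places are chr6:78597023-78597322 on the minus strand for Nfkbia, chr2:226805413-226805712 on the minus strand for Nfkb1, chr9:91836909-91837208 on the plus strand for Ccl20 and chr14:15988816-15989115 on the plus strand for Cxcl10.
Nfkbia: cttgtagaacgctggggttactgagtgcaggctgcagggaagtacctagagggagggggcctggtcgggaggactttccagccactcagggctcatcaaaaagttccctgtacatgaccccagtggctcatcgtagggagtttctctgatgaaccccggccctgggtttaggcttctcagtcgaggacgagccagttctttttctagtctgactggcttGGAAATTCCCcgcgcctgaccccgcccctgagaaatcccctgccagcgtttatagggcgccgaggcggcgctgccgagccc
Nfkb1: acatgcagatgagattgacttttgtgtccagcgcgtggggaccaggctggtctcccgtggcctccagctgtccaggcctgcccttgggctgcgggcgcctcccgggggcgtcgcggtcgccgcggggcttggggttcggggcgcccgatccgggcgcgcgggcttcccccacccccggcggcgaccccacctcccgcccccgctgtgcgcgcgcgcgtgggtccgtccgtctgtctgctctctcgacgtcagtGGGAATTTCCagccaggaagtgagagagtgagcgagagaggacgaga
Ccl20: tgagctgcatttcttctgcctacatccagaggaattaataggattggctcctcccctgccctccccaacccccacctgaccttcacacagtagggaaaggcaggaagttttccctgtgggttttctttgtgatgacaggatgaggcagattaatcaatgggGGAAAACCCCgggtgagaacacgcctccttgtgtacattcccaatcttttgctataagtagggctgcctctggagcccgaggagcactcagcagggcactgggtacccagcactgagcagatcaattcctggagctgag
Cxcl10: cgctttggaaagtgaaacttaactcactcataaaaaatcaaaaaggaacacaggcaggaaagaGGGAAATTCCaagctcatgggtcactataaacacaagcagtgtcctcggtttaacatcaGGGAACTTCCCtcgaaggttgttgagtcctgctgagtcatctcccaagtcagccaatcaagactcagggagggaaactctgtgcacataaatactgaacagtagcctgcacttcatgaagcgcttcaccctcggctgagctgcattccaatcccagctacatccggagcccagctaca
The Nfkbia window had 1 match, whose first base lay 31 bases before the start, and the Ccl20 window had 1 match, 89 bases before it. The Nfkb1 match began 3 bases past the start base. The Cxcl10 window held 3 matches, of which the last pair overlap on opposite strands. The table held a window for 76 of the 102 members, and 15 of the 76 (19.7%) had a match, against 7.51% of all 33469 windows. The first share counts members, which had 78 windows, and the second counts single windows. A match is a string of letters and not a site shown to be bound. Of the 13 tested members with a match, Nfkbia lay higher in obese tissue with separated groups, Ccl20 and Ccr3 lay lower, and for the other 10 the groups overlapped. Over all tested genes 16.4% were separated upwards and 24.0% downwards.

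**Figure D3:**
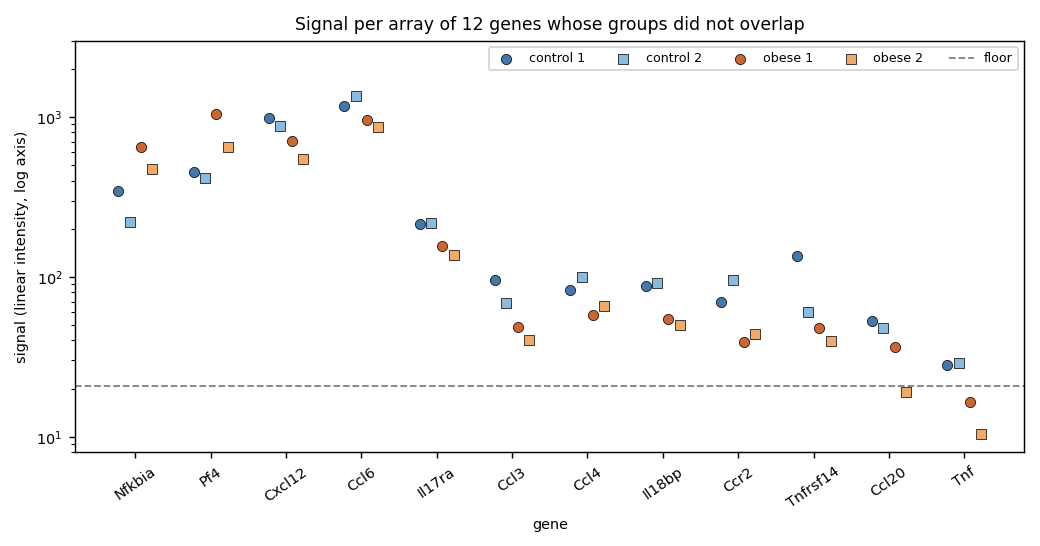
Signal per array (vertical log axis, linear intensity) of 12 genes whose control arrays (blue) and obese arrays (orange) did not overlap, with the floor of 20.8 dashed. Nfkbia and Pf4 lay higher on both obese arrays, the other 10 lay lower, and Tnf lay under the floor on both obese arrays.

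CC chemokines draw monocytes and lymphocytes into tissue. Of the 11 measured CC ligands 10 were tested, with 4 separated downwards and 0 upwards, against 24.0% and 16.4% of all genes. Of the 10, 7 were lower and 3 higher in obese tissue, with a median log2 difference of -0.27. That balance also rested on obese replicate 2, without which 4 were lower and 6 higher and the median was 0.04. Ccl6, expressed by rodent myeloid cells, had signals of 1164.2 and 1360.9 in control and 952.7 and 865.1 in obese tissue, a log2 difference of -0.47 ± 0.14 (limma adjusted p = 0.522). Ccl3, the macrophage inflammatory protein 1-alpha, had 95 and 69.1 in control and 48.9 and 40.5 in obese tissue, a difference of -0.86 ± 0.24 (limma adjusted p = 0.495), or -0.57 with the floor at the 40th percentile. Ccl4, its close relative, had 82.5 and 99.9 against 57.8 and 66.0, a difference of -0.56 ± 0.20 (limma adjusted p = 0.564). For all 3 both obese arrays lay below both control arrays. Ccl6, Ccl3 and Ccl4 follow each other directly among the protein-coding genes of RefSeq's GRCr8 table.

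Ccl20, the ligand of Ccr6, had 53 and 48 in control and 36.5 and 19.1 in obese tissue, a difference of -0.87 ± 0.30 (limma adjusted p = 0.557) that was -0.47 without obese replicate 2, the array under the floor. Ccl2, the monocyte chemoattractant, was not separated. Its signals were 147.1 and 277.5 in control and 206.4 and 344.7 in obese tissue, a difference of 0.40 ± 0.37 that turned to -0.06 without control replicate 1. Ccl5, made largely by T and NK cells, had 198.6 and 83.4 in control and 223.4 and 45.5 in obese tissue. The arrays of one group thus lay further apart than the groups, and the difference of -0.35 ± 0.78 was 0.80 without obese replicate 2 and 0.27 without control replicate 1. The eotaxin gene Ccl11, next but 1 to Ccl2 on the chromosome, had 85.3 and 86.5 in control and 92.3 and 71.6 in obese tissue. Ccl17, Ccl22 and Ccl27 overlapped between groups as well.

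Of the 11 CXC ligands 10 were tested, with 5 higher and 5 lower in obese tissue. Separated upwards were 2 and downwards 2, against 16.4% and 24.0% of all genes. The 2 separated upwards are Pf4 and Cxcl3, and the latter is counted by its brightest probe set, which another contradicts. Pf4, platelet factor 4, a chemokine stored in platelet granules and also made by macrophages, had 452 and 416.7 in control and 1041.8 and 653.5 in obese tissue. The groups were separated, by a log2 difference of 0.93 ± 0.23 (limma adjusted p = 0.467), which was 0.59 without obese replicate 1. The 4 other platelet genes measured (Ppbp, Itga2b, Gp5 and Selp) had summed signals of 145.7 and 147 in control and 209.1 and 139.2 in obese tissue. Only obese replicate 1 stood above the control arrays in that sum. Ppbp, the platelet basic protein, had 35.1 and 49.2 in control and 39.3 and 41.7 in obese tissue, with overlapping groups. The part of platelets in the Pf4 values was not tested.

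Cxcl12, the stromal ligand of Cxcr4, had 985.8 and 884.3 in control and 708.8 and 549.6 in obese tissue with the probe set of the highest signal, a difference of -0.58 ± 0.17 (limma adjusted p = 0.511). A second probe set gave 284.1 and 260.6 against 192.7 and 174.8, a difference of -0.57. The third disagreed: it gave 656.2 and 608.2 in control and 613.8 and 900.3 in obese tissue, a difference of 0.23. With the mean over the 3 probe sets the difference was -0.23. Cxcl16, a membrane-bound scavenger of oxidised lipid as well as a chemokine, had 262.4 and 238.2 in control and 224.9 and 135.9 in obese tissue, a separated difference of -0.52 ± 0.25 that was -0.15 without obese replicate 2. Cxcl14 had 91.9 and 124.9 in control and 119.8 and 194.1 in obese tissue. Its groups overlapped, and its difference of 0.51 ± 0.28 was 0.16 without obese replicate 2, 0.29 without control replicate 1 and 0.86 without obese replicate 1.

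Cxcl13, which attracts B cells, resembled Ccl5 in its spread, with 375.6 and 229.5 in control and 384.4 and 130.7 in obese tissue. The T cell gene Cd3d, given here for comparison, had 77.7 and 26.2 in control and 28.8 and 23.3 in obese tissue, so that it stood apart on control replicate 1 only. The interferon-induced chemokines Cxcl9 and Cxcl10 overlapped between groups, with 174.9, 252.9, 138.2 and 230.3 for Cxcl9 and 68.8, 73.6, 71.3 and 80.7 for Cxcl10 on control replicates 1 and 2 and obese replicates 1 and 2. The neutrophil chemokines were dim. Cxcl1 had 19.1 and 47.7 in control and 41.4 and 44.1 in obese tissue, and Cxcl2 was flat at 36.5, 35.9, 36.0 and 34.0. Cxcl3 gave opposite answers with its probe sets: 1 read 6.0 and 26.5 in control and 45.5 and 34.3 in obese tissue (difference 0.75 ± 0.24), and another read 25.1 and 39.2 against 8.4 and 6.6 (difference -0.59 ± 0.26). Its remaining 2 probe sets lay under the floor, and no direction is given for this gene.

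**Figure D4:**
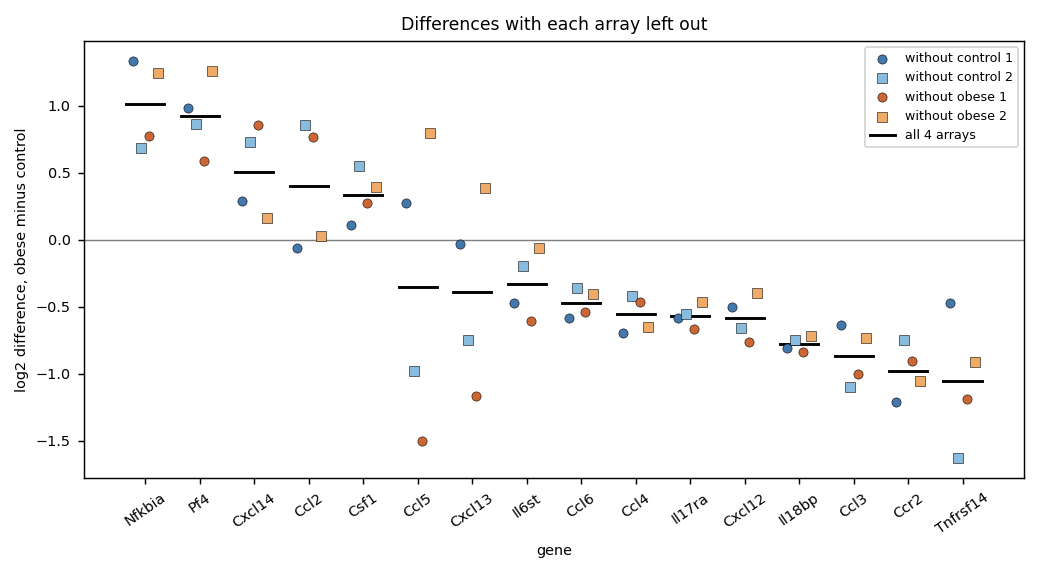
Log2 difference, obese minus control (vertical axis), for 16 genes with all 4 arrays (black bars) and with each array left out (points). Nfkbia and Pf4 stayed above 0 and Ccl6, Ccl4, Il17ra, Cxcl12, Il18bp, Ccl3, Ccr2 and Tnfrsf14 stayed below it in these 4 fits, while Ccl2, Ccl5 and Cxcl13 crossed it.

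All 9 chemokine receptors were tested, of which 4 were separated downwards and 0 upwards, with 7 lower and 2 higher, where 24.0% of all genes were separated downwards. With each of the other scalings (median centring, quantile and cyclic loess) 2 were separated downwards and 1 upwards, and with median centring 5 were lower and 4 higher. Ccr2, the receptor by which monocytes answer Ccl2, had 69.6 and 95.6 in control and 39.4 and 43.6 in obese tissue, a log2 difference of -0.98 ± 0.23 (limma adjusted p = 0.467), or -0.58 with the floor at the 40th percentile. Ccr1, a receptor of Ccl3 and Ccl5, had 221.7 and 246.5 in control and 192 and 195.3 in obese tissue, a difference of -0.27 ± 0.14. Ccr3, the eotaxin receptor, had 30.2 and 42.9 against 29.6 and 29.8, a difference of -0.28 ± 0.24 that was -0.02 without control replicate 2. On every obese array these 3 receptors were below both control arrays, Ccr3 only narrowly (29.8 on the higher obese array against 30.2 on the lower control array). They lie side by side in the RefSeq table, with 0 genes between Ccr1 and Ccr3 and 1 between Ccr3 and Ccr2. Cxcr5, the receptor of Cxcl13, had 100.9 and 71.7 in control and 69.2 and 68.2 in obese tissue. Cxcr4, the receptor of Cxcl12, overlapped between groups with 165.7 and 136 against 160.1 and 129.6 in its brightest probe set. Its other probe sets were narrowly separated downwards, with 126.2 and 118.1 against 117.9 and 98.2 and with 99.3 and 110.9 against 90.4 and 89.6. Cxcr2, Cxcr3, Cxcr1 and Ccr4 overlapped between groups.

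Of the 21 interleukin genes 14 were tested, and 7, among them Il2, Il5, Il6 and Il10, were not. Separated downwards were 3 (Il18, Il4 and Il1b) and upwards 1 (Il12b), against 24.0% and 16.4% of all genes. Of the 14, 10 were lower and 4 higher. Without obese replicate 2, 7 were lower and 7 higher. Il33, an alarmin of stromal and endothelial cells that supports regulatory T cells and innate lymphoid cells in fat, had 879.8 and 855.2 in control and 922 and 700.7 in obese tissue, groups that overlapped. Its second probe set, with 264 and 262.2 in control and 242.6 and 244.3 in obese tissue, gave the same difference of -0.11 but separated groups. Il18 had 91 and 122.7 in control and 69.7 and 78.2 in obese tissue, a difference of -0.52 ± 0.21 (limma adjusted p = 0.612) that was -0.30 without control replicate 2. Il1b, the classical product of activated macrophages, had 64.1 and 65.2 in control and 57.3 and 57.5 in obese tissue. These groups were separated but close, at -0.17 ± 0.18, or -0.09 with median centring.

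Among the 22 interleukin receptors and binding proteins 19 were tested, with 4 separated downwards and 2 upwards, against 24.0% and 16.4% of all genes. Of the 19, 12 were lower and 7 higher. The median log2 difference was -0.12, and 0.0035 without obese replicate 2. Il18bp, a secreted protein that neutralises interleukin-18, had 87.6 and 91.5 in control and 54.4 and 50.2 in obese tissue, a difference of -0.78 ± 0.18 (limma adjusted p = 0.460) that stayed between -0.83 and -0.72 with 1 array left out in turn. Its ligand Il18 and this inhibitor were thus both lower on the 2 obese arrays. Il17ra, the shared receptor chain for interleukin-17 cytokines, had 214.4 and 218.3 in control and 156.6 and 136.4 in obese tissue, a difference of -0.57 ± 0.15 (limma adjusted p = 0.467). Il2rg, the common gamma chain of several lymphocyte cytokine receptors, had 280.4 and 180.6 against 166.9 and 168.1. Its difference of -0.43 ± 0.23 came to -0.11 when control replicate 1 was left out and to -0.74 when control replicate 2 was.

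Il6st (gp130), the signalling chain of the interleukin-6 receptor family, had 683 and 823.4 in control and 720.7 and 492.4 in obese tissue. Its groups overlapped, and the difference of -0.33 ± 0.21 was -0.06 without obese replicate 2, -0.61 without obese replicate 1 and -0.20 without control replicate 2. Its other probe sets gave -0.15 and -0.65. Upwards, Il2ra had 33.6 and 24.3 in control and 34.5 and 48.3 in obese tissue, and Il9r had 88.1 and 72.6 against 104.3 and 89.6. Both were separated by a narrow margin. The difference of Il2ra, 0.51 ± 0.27, was 0.28 without control replicate 2 and 0.27 without obese replicate 2. That of Il9r, 0.27 ± 0.20, was 0.13 without control replicate 2. Il1rl1, the interleukin-33 receptor ST2, gave 29.3 and 95.4 in control and 53 and 38.4 in obese tissue with 1 probe set. The other gave 35.1 and 25.1 against 56.6 and 54.6, a separated difference of 0.91 ± 0.23 (limma adjusted p = 0.467). Il7 and Il17re also had probe sets of opposite sign, at -0.42 and 0.08 for Il7 and at -0.06 and 0.02 for Il17re.

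Tnf itself was dim. Its better probe set had 28.1 and 29.1 in control and 16.4 and 10.4 in obese tissue, so that only the control arrays lay above the floor and obese tissue was at least 1.37-fold lower. The other Tnf probe set read 4.4, 4.6, 5.7 and 3.9, under the floor on every array. The other 3 tested TNF superfamily ligands (Tnfsf12, Tnfsf13 and Tnfsf4) were also separated downwards, as were 24.0% of all genes. With each of the other scalings all 4 ligands tested, Tnf included, were separated downwards. Tnf, admitted by its control arrays alone, adds nothing to that count, and Tnfsf4 was dim, with signals from 20.4 to 27.2. Tnfsf12 (TWEAK) had 244.3 and 273.8 in control and 226.7 and 195.6 in obese tissue, a difference of -0.30 ± 0.15 that was -0.19 without obese replicate 2. Tnfsf13 (APRIL), a B cell survival factor, had 210.6 and 271 against 208.2 and 188.8. Its difference of -0.27 ± 0.17 came to -0.09 when control replicate 2 was left out and to -0.45 when control replicate 1 was. Tnfsf12 and Tnfsf13 are direct neighbours in the RefSeq table. The lowest adjusted p of these 4 genes was 0.588, for Tnf.

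Of the 9 TNF receptors 8 were tested, with 2 separated downwards and 0 upwards, against 24.0% and 16.4% of all genes. Of the 8, 6 were lower and 2 higher. That balance turned to 3 lower and 5 higher without control replicate 2 and also without obese replicate 2, where the median log2 difference was 0.011 and 0.070, respectively. Tnfrsf14 (HVEM), expressed by lymphocytes and myeloid cells, had 134.6 and 60.2 in control and 47.8 and 39.6 in obese tissue. Its difference of -1.05 ± 0.39 (limma adjusted p = 0.574) rested largely on 1 array: it came to -0.47 when control replicate 1 was left out and to -1.63 when control replicate 2 was. Tnfrsf1b, the second TNF receptor, had 77.1 and 74.1 against 63.3 and 53.4, a difference of -0.38 ± 0.19. Tnfrsf1a, the widely expressed first TNF receptor, overlapped with 553.4 and 667.5 in control and 636.8 and 491.4 in obese tissue. Tnfrsf11b, the decoy receptor osteoprotegerin, overlapped too, with 504.9 and 439.3 against 470.3 and 339. The 4 genes named as TNF-induced proteins (Tnfaip1, Tnfaip2, Tnfaip6 and Tnfaip8) had overlapping groups in their brightest probe sets. For Tnfaip2 the brightest probe set had 91.4 and 108.1 in control and 96.6 and 96.1 in obese tissue. Its other probe sets were separated downwards, with 53.2 and 53.9 against 44 and 38.6 (log2 difference -0.38) and with 33.7 and 28.6 against 21.1 and 20.1 (-0.57). Tnfaip1 had 420.1 and 444.5 in control and 413.2 and 568.1 in obese tissue.

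Csf1, the growth factor of macrophages, had 114.9 and 156.2 in control and 175.7 and 162.1 in obese tissue. Each obese signal exceeded each control signal, and the difference of 0.33 ± 0.19 (limma adjusted p = 0.694) came to 0.11 when control replicate 1 was left out and to 0.55 when control replicate 2 was. Its receptor Csf1r, a marker of the macrophage lineage, lay the other way, with 741.6 and 859.1 in control and 647.3 and 647.8 in obese tissue. That difference was -0.30 ± 0.13 (limma adjusted p = 0.623), and -0.20 without control replicate 2. Csf2rb, the shared beta chain of the receptors for Csf2, Il3 and Il5, had 110.7 and 130.1 against 96.4 and 81.8, a difference of -0.43 ± 0.19. Csf2 and Csf3 were dim, with signals from 15.9 to 30.6 for Csf2 and from 7.6 to 27.2 for Csf3. Csf3 was above the floor on the obese arrays alone and at least 1.19-fold higher there.

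Beside these genes, markers of several cell types differed between the same arrays. The marker lists were chosen with earlier results of these data known, so their counts are descriptions and not independent evidence. Obese replicate 2 had the lowest median signal, 75, against 82.2 to 83.1 on the other arrays. The adipocyte markers checked the labelled tissue: adipsin (Cfd) had 3440.4, 3515.8, 3346.2 and 3533.9 on control replicates 1 and 2 and obese replicates 1 and 2. Cfd was the only 1 of the 10 adipocyte markers lower in obese tissue, and 9 were higher. Of these 3 had separated groups, against 16.4% of all genes. Slc2a4 had 91.5 and 75 in control and 115.9 and 141.1 in obese tissue, and Plin1 had 308.7 and 275.3 against 353 and 391.3. The summed signal of the 10 adipocyte markers was highest on obese replicate 2, at 20338.4 against 16024 to 16367 on the other arrays. All 17 measured macrophage markers had lower means in obese tissue, 14 with separated groups, against 24.0% of all genes. Their median log2 difference was -0.60, and their summed signals were 12297.9 and 15650 in control and 8967.4 and 8852 in obese tissue. Of the lymphocyte markers outside the members 13 of 14 tested were lower, 6 with separated groups, against 24.0% of all genes. Among the 6, Cd8a was above the floor on the control arrays alone and could only come out lower. The lymphocyte sums were 2010.5 and 1436.1 against 1101.8 and 875.8. Cd4, the brightest of these markers and the largest term in the sums, had 569.1 and 540.8 in control and 303.2 and 270.1 in obese tissue. Groups overlapped for the T cell genes Cd3d, Cd3g and Cd247. Cd3g stood apart on control replicate 1 only, with 150.8 and 65.3 against 74.3 and 70, as did Cd79b with 99.3 and 17.5 against 13.8 and 8.7. The mast cell markers went the other way, with 7 of 8 tested higher, 5 of them with separated groups, against 16.4% of all genes. Kit was the 1 marker that was lower. The mast cell sums were 938.2 and 1099.9 in control and 1816.2 and 1287.8 in obese tissue. Of the 4 neutrophil markers measured 2 were tested, both lower, with sums of 154.4 and 78.4 against 83.3 and 39.3. Of the 2, Mmp8 was above the floor on the control arrays alone and could only come out lower. Endothelial sums were even, from 2774.8 to 2915.2. Of the 9 endothelial markers tested 2 were separated upwards and 1 downwards, against 16.4% and 24.0% of all genes. The 1 downwards was Tie1, with 305.2 and 327 in control and 234.1 and 229.6 in obese tissue. Mesothelial sums ranged from 383.5 on obese replicate 2 to 1805.8 on obese replicate 1. No marker was at 0, but Cd28, Np4 and Mcpt4 lay at or under the floor on every array. Fewer cells of a type and less RNA per cell cannot be told apart in whole tissue, and the part of these cells in the values of Ccr2, Csf1r, Ccl3, Ccl6 and the other members was not tested.

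**Figure D5:**
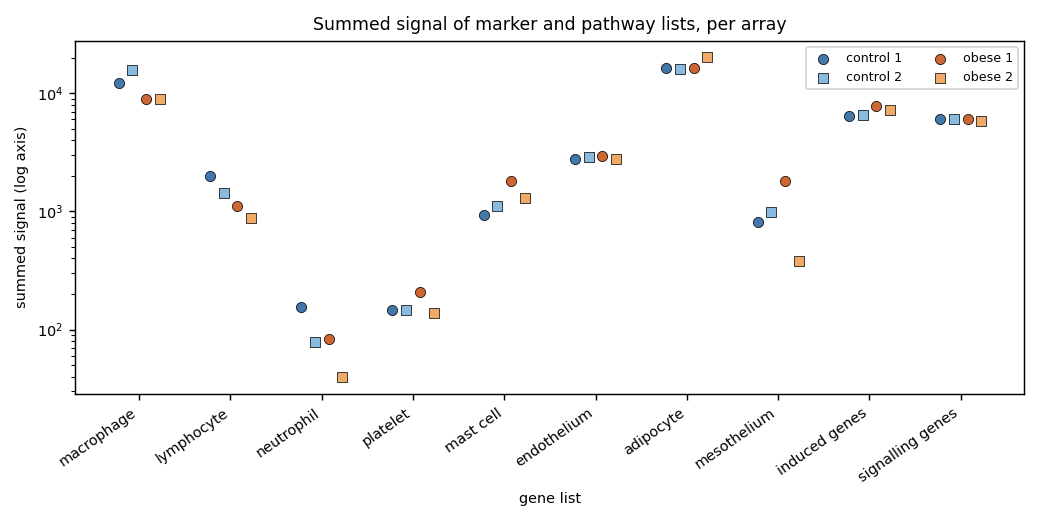
Summed signal per array (vertical log axis) of marker and pathway gene lists, members left out, with control arrays in blue and obese arrays in orange. Macrophage and lymphocyte sums were lower and mast cell and induced gene sums higher on both obese arrays, and the mesothelial sum was lowest on obese replicate 2. Bright genes weigh most in a sum: of the 27 tested induced genes 15 were lower in obese tissue, with a median log2 difference of -0.02.

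Genes of the same pathways outside the naming rule were taken from 3 lists. These lists, too, were chosen with earlier results of these data known. Of 35 measured adaptors, kinases and transcription factors of cytokine signalling (among them Traf, Irak, Jak and Stat genes) 32 were tested. Of these 24 were lower and 8 higher, where 5102 of all 9011 tested genes were lower. An unadjusted limma p under 0.05 was reached by 1 of the 32, against 8.59% of all genes. This was Ptpn6 (SHP-1), a phosphatase of blood cells that dampens cytokine receptors, with 125 and 111.5 in control and 84.3 and 59.9 in obese tissue. Of 30 other cytokines and receptors 24 were tested, 11 higher and 13 lower. Among them Cx3cl1 (fractalkine), a membrane-bound chemokine of endothelium and adipocytes, had 79.4 on both control arrays and 129.4 and 131.4 on the obese arrays, a difference of 0.72 ± 0.16 (limma adjusted p = 0.438). Ackr3, the scavenging second receptor of Cxcl12, had 363.8 and 345.8 in control and 538.1 and 437.2 in obese tissue, a difference of 0.45 ± 0.15 (limma adjusted p = 0.527). Tnc, a matrix protein counted in this list, and Spp1 (osteopontin), a matrix protein that also acts as a cytokine, went the other way. Tnc had 216.6 and 234.5 in control and 52.1 and 42.6 in obese tissue, and Spp1 had 259.7 and 579.1 against 70.3 and 83.6.

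Of 28 measured genes that inflammatory and stress signals are known to induce, 27 were tested, 12 higher and 15 lower, with a median log2 difference of -0.02. An unadjusted limma p under 0.05 was reached by 6 upwards (Dusp1, Zfp36, Cebpb, Sod2, Jun and F3) and 2 downwards (Mmp9 and Atf3), against 3.33% and 5.26% of all genes. Dusp1, a phosphatase that switches off MAP kinases, had 721.1 and 659.1 in control and 1189.2 and 1171.6 in obese tissue, a difference of 0.78 ± 0.13 (limma adjusted p = 0.373). Zfp36 (tristetraprolin), which destabilises cytokine mRNAs, had 388.4 and 408.5 in control and 630.2 and 632 in obese tissue, a difference of 0.66 ± 0.12 (limma adjusted p = 0.402). Cebpb, an adipogenic and acute-phase transcription factor, had 335 and 346.7 against 473.7 and 547.4, a difference of 0.58 ± 0.13. Mmp9, a gelatinase, was above the floor on the control arrays alone and at least 2.13-fold lower in obese tissue. Admitted by those arrays alone, Mmp9 could only come out lower. Atf3, a stress-induced factor named here after its values were seen, as were Sod2, Jun and F3, had 89.5 and 121.4 in control and 69.3 and 37.2 in obese tissue. Both directions were thus present among genes of this kind, also with Mmp9 set aside, and 0 of the 27 passed limma's test over all probe sets.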

How the data were processed

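Visceral adipose RNA of male Wistar rats was measured on 4 single-colour arrays, 2 labelled control and 2 obese. The authors deposited 1 linear intensity per probe set and array. How they were scanned and normalized is not given in the sources used here. The arrays had been scaled already: their 2% trimmed means lay between 149.6 and 149.8, and the intensities were used as deposited. Of 15923 probe sets, 57 controls were left out, and only the 12783 probe sets with 1 gene symbol were named. All 102 members were found by Entrez identifier in the RefSeq table of GRCr8 with unchanged symbols.

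Values were raised to the floor of 20.8 and log2 was taken. The 12929 probe sets above it on at least 2 arrays were fitted with limma 3.58.1 in R 4.3.3 (lmFit, eBayes with trend, two-sided, Benjamini-Hochberg over all of them, threshold 0.05). Errors are moderated standard errors with 5.83 degrees of freedom. With 2 against 2 arrays the smallest two-sided p of an exact permutation test is 0.333, and no such test was made. The code was tested on simulated data.

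Members and gene lists were chosen with earlier results of these data known. Named genes were Tnf and the 6 genes listed singly in the member rule, the 8 tested members with the smallest p in each direction, the 6 with the highest mean log2 signal, the member with the highest mean in each role, members whose tested probe sets differ in sign, and up to 4 genes per other list with an unadjusted p under 0.05. Of the list genes, Laptm5, Gpnmb, Mmp12, Mpeg1, Cd37, Cd5, Klrd1, Cma1, Hdc, Cpa3 and Tpsab1 met this rule but are not described singly. Tnfrsf14, Il18, Cxcl16, Csf2rb, Il2rg, Tnfrsf1b, Ccl2, Ccl5, Cxcl13, Il1b, Tnfsf13, Cxcl1, Cxcl9, Cxcl10, Ccr3, Tnfaip2 and others given by signals alone were added after their values were seen. Alternatives covered scaling, floor, filter, probe set choice, variance model, a replicate block and leaving out each array.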

Additional observations from a re-analysis of the deposited data

How the results depend on the processing

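The number of members passing limma was 0 under each of the 18 alternatives run, and 0 with a replicate block. The replicate numbers in the titles are not stated to pair the arrays, and deviations of same-numbered arrays correlated at 0.048. The member separated and at least 2-fold higher (1) became 2 with median centring, 3 with the floor at the 10th percentile, and 0 with quantile normalization, cyclic loess or the pseudocount of 16. It ranged from 0 to 2 with an array left out. The 1 member separated and at least 2-fold lower became 3 with the floor at the 10th percentile, and 0 with median centring, quantile normalization, cyclic loess, the floor at the 40th percentile or the pseudocount, and ranged from 1 to 5 with an array left out. The median difference ranged from -0.26 to 0.0028 with an array left out, and turned only without obese replicate 2. The causes were not tested.

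Single differences turned with 1 array left out, and their ranges were -0.32 to 4.0e-05 for Nfkb1, -0.31 to 0.088 for Il33, -0.31 to 0.067 for Tnfrsf1a, -0.065 to 0.39 for Tnfaip1, -0.46 to 0.33 for Il17re, -1.08 to 0.62 for Il1rl1, -0.057 to 0.86 for Ccl2, -1.5 to 0.80 for Ccl5, -1.17 to 0.39 for Cxcl13, -0.16 to 1.04 for Cxcl1 and -0.61 to 0.13 for Cxcl9. Il17re came to 0.016 with median centring, and Il1rl1 to 0.20 with the mean over its probe sets. With the pseudocount, Tnc alone of the genes named passed limma at the adjusted threshold. Signal near the floor limits Tnf, Csf3, Cxcl3 and Ccl20.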
